A study of Mus musculus with 2 samples.

Results

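The immune checkpoint receptors and their ligands were examined as 10 genes chosen by symbol, Cd274, Pdcd1lg2, Cd80, Cd86 and Lgals9 on the ligand side and Pdcd1, Ctla4, Lag3, Tigit and Havcr2 on the receptor side, of 32285 genes in the deposited matrices. To learn which cells held the receptors and which supplied the ligands, single-cell RNA-Seq data from 2 orthotopic pancreatic tumors were divided into cell classes and the unique molecular identifiers (UMIs) of each gene were summed by class. Cells of KPC, a line of mouse pancreatic cancer, were injected into the pancreas of immunocompetent C57BL/6J mice several weeks old. The cells were either the control line KPC-shV or KPC-shZEB1, in which a hairpin targets Zeb1, and 1 library was made per group. The study's text places both tumors under gemcitabine, which the labels do not mention, so both groups would share that treatment. Mouse, tumor, dissociation and library were the same split as the hairpin, and these cannot be told apart. No difference below has a replicate check. Levels are UMIs of a gene per 1000000 UMIs of the class (CPM), each ratio divides the level under the label KPC-shZEB1 by that under KPC-shV, paired values come in the order KPC-shV, KPC-shZEB1, and numbers in parentheses are exact 95% intervals that cover counting error only.

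Checkpoint receptors are surface proteins that restrain activated lymphocytes once their ligands on other cells engage them. PD-1, encoded by Pdcd1, binds PD-L1 (Cd274) and PD-L2 (Pdcd1lg2). CTLA-4 (Ctla4) competes with the costimulatory receptor CD28 for CD80 and CD86 on antigen-presenting cells. LAG-3 (Lag3) binds MHC class II, TIGIT (Tigit) binds the poliovirus receptor family, and TIM-3 (Havcr2) has galectin-9 (Lgals9) among its ligands. In pancreatic cancer, myeloid cells are abundant and T cells are often scarce.

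The KPC-shV and KPC-shZEB1 libraries, named here by their labels, held 12594 and 13271 barcodes, of which 11398 and 12104 were kept after filters on genes, UMIs, mitochondrial UMIs and doublets. Their median cells had 3720 and 4252 UMIs, and 36 kept barcodes occurred in both libraries. Cell classes were named X-like from marker genes, and for 8 of the 9 classes with at least 50 cells in each library every marker was highest in its own class (11 of 13 for monocyte-macrophage-like cells). The same markers set the names, so this is no independent check of them. Granulocyte-like cells made up 60.3% and 37.8% of the kept cells, T-like cells 3.57% and 10.5%, B-like cells 2.55% and 10.1%, and tumor-like cells 8.86% and 10.3%. Zeb1 in tumor-like cells was 130.1 CPM and 174.0 CPM (ratio 1.34, 1.28–1.40). Summed over tumor-like cells, the targeted gene was therefore not lower in the library that carries its hairpin by label. Tumor-like clusters were in unlike numbers (cluster 20, led by Zfp804b and Ralyl, had 9 and 223 cells), and Zeb1 was not compared by cluster. Each direction below is a difference between 2 labelled libraries only.

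To show the DNA that lies next to the 2 ligand genes on which the results turn, the 250 bases upstream of the start of Cd274 and of Lgals9 were read from RefSeq (GRCm38.p6). Cd274 is the ligand gene with its highest level in granulocyte-like cells, and Lgals9 is the ligand gene whose level was spread most evenly over the classes. The stretch of Cd274 lies at chr19:29367188-29367437 on the plus strand and that of Lgals9 at chr11:78984925-78985174 on the minus strand.
Cd274: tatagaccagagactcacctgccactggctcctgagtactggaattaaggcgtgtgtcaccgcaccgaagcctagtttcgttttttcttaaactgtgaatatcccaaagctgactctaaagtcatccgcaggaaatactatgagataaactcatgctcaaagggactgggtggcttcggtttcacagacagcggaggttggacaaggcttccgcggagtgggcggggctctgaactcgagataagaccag
Lgals9: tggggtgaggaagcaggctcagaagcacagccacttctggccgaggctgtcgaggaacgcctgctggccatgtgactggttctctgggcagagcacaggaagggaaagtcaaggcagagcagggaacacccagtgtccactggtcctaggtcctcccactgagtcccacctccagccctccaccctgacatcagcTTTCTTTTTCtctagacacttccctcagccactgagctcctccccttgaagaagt
Capitals mark the only match of GAAA repeated after a gap of 2 bases, as found in elements that interferon regulatory factors bind, searched on both strands. It lies 46 to 55 bases before the RefSeq start of Lgals9, on the complementary strand, and that start lies inside the GENCODE span of the gene given further on. Of the members, 8 were in the promoter table (Cd86 and Lag3 were not), and Lgals9 was the 1 member with this motif, which 2.98% of all 32536 promoters held. A match is a description of these letters and no statement about binding.

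Cd274 and Pdcd1lg2, the ligands of PD-1, lie 22823 bases apart on chromosome 19 (29367455–29388095 and 29410919–29471161, plus strand, GRCm38), and their highest levels lay in different cell classes. Granulocyte-like cells had 2426 CPM of Cd274 (2405–2446) under the label KPC-shV and 1828 CPM (1805–1850) under KPC-shZEB1. They were the class with the highest level in both libraries. They held 71.6% and 43.9% of all Cd274 UMIs among kept cells. Dendritic-like cells followed with 976.4 and 868.6 CPM, and monocyte-macrophage-like cells with 577.5 and 528.7 CPM. NK-like, T-like, B-like and endothelial-like cells lay between 171.6 and 284.3 CPM, and these neighbours in the order were close to each other. Tumor-like cells had 117.6 and 119.6 CPM, and fibroblast-like cells the least, with 114.0 and 82.47 CPM.

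**Figure D1:**
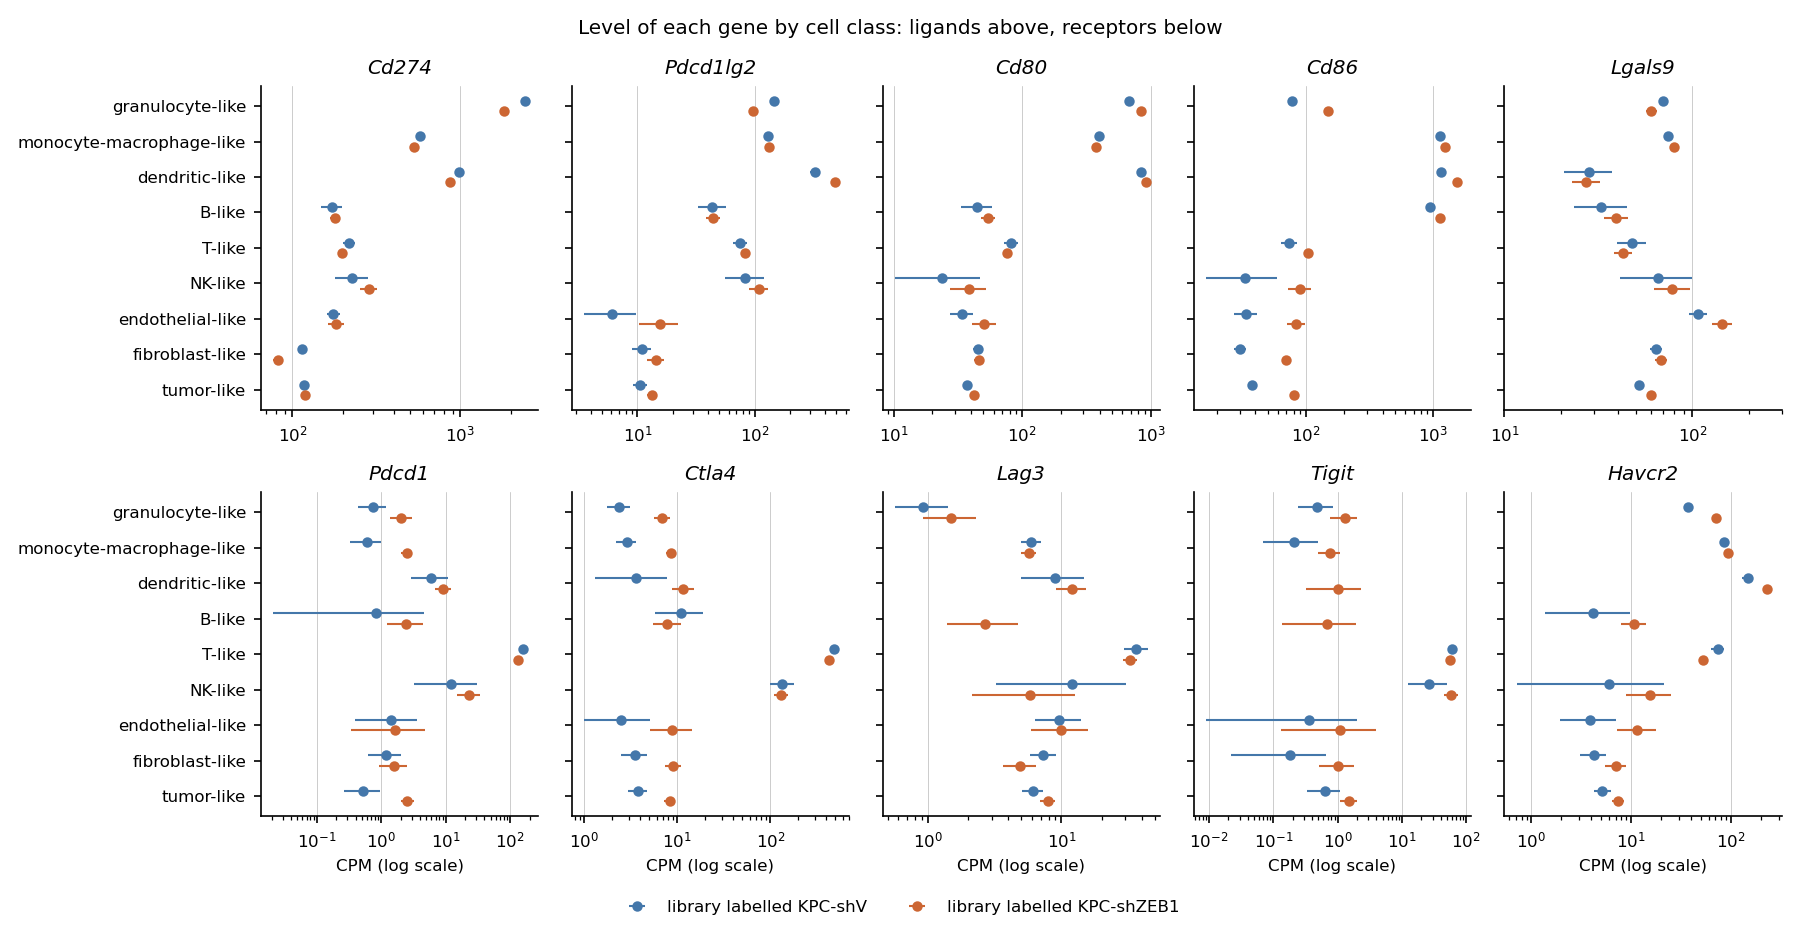
Level of each gene (CPM, log scale) in the 9 cell classes with at least 50 cells per library, with 1 point per library and bars for exact 95% Poisson intervals. Cd274 peaks in granulocyte-like cells, and Pdcd1, Ctla4, Lag3 and Tigit in T-like or NK-like cells, and classes without a UMI have no point, namely B-like cells for Lag3 and Tigit and dendritic-like cells for Tigit in the library labelled KPC-shV.

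A share of the RNA in each droplet is free RNA from other cells, and its part was estimated from genes that mark 1 class. Tumor-like cells had 3.68% and 2.53% of the granulocyte level of S100a8 and S100a9 and 5.15% and 7.94% of the macrophage level of the C1q genes. At such shares, free RNA of granulocyte-like, monocyte-macrophage-like, T-like and B-like cells alone would give 121 and 93.1 CPM of Cd274 in tumor-like cells. That is 103% and 77.8% of the level found there, and 101% and 106% in fibroblast-like cells. The share of tumor-like cells with a Cd274 UMI was 64.1% and 70.2% at median depths of 19028 and 22902 UMIs, but 10.3% in both libraries once every cell was thinned to 1000 UMIs. In granulocyte-like cells, at 3147 and 2887 UMIs, it was 87.6% and 81.7% as found and 71.5% and 62.1% after thinning. The same estimate exceeds the levels found for Cd86 (173% and 145%) and Cd80 (124% in both libraries) in tumor-like cells, so it does not bound free RNA. How much of the Cd274 level of tumor-like and fibroblast-like cells came from free RNA was not tested further. In T-like cells the same estimate reached 57.5% and 46.8% of the Cd274 level.

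Pdcd1lg2 was highest in dendritic-like cells, with 326.3 CPM (299.5–354.8) and 482.4 CPM (463.3–502.0). Granulocyte-like cells had 145.3 and 96.57 CPM, and monocyte-macrophage-like cells 130.1 and 133.9 CPM. These classes swapped their order between the libraries. Granulocyte-like cells held 43.1% of the Pdcd1lg2 UMIs under the label KPC-shV but 12.8% under KPC-shZEB1, where monocyte-macrophage-like cells held 49.0%. Tumor-like cells had 10.55 and 13.32 CPM, under the 12.7 and 14.8 CPM that free RNA alone would give. The classes also differed in the mix of both ligands. For each Pdcd1lg2 UMI there were 16.7 and 18.9 UMIs of Cd274 in granulocyte-like cells, 4.44 and 3.95 in monocyte-macrophage-like cells and 2.99 and 1.80 in dendritic-like cells.

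Cd80 and Cd86, the shared ligands of CD28 and CTLA-4, also lie on chromosome 16 together (38455561–38496335, plus strand, and 36603869–36666081, minus strand). Cd80 had 844.4 and 918.6 CPM in dendritic-like cells, 675.7 and 838.9 CPM in granulocyte-like cells and 394.3 and 372.4 CPM in monocyte-macrophage-like cells. Cd86 had 1158 and 1545 CPM in dendritic-like cells, 1140 and 1245 CPM in monocyte-macrophage-like cells and 945.5 and 1133 CPM in B-like cells. Granulocyte-like cells thus had more Cd80 than monocyte-macrophage-like cells but less than dendritic-like cells, and their Cd86, at 77.44 and 147.5 CPM, was below that of both. Free RNA would give 82.0% and 96.8% of that Cd86 level, and 3.18% and 4.81% of the Cd80 level. B-like cells showed the opposite mix, with 44.58 and 54.42 CPM of Cd80. Per UMI of Cd86, granulocyte-like cells had 8.73 and 5.69 UMIs of Cd80, dendritic-like cells 0.729 and 0.595, monocyte-macrophage-like cells 0.346 and 0.299, and B-like cells 0.0472 and 0.0480.

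**Figure D2:**
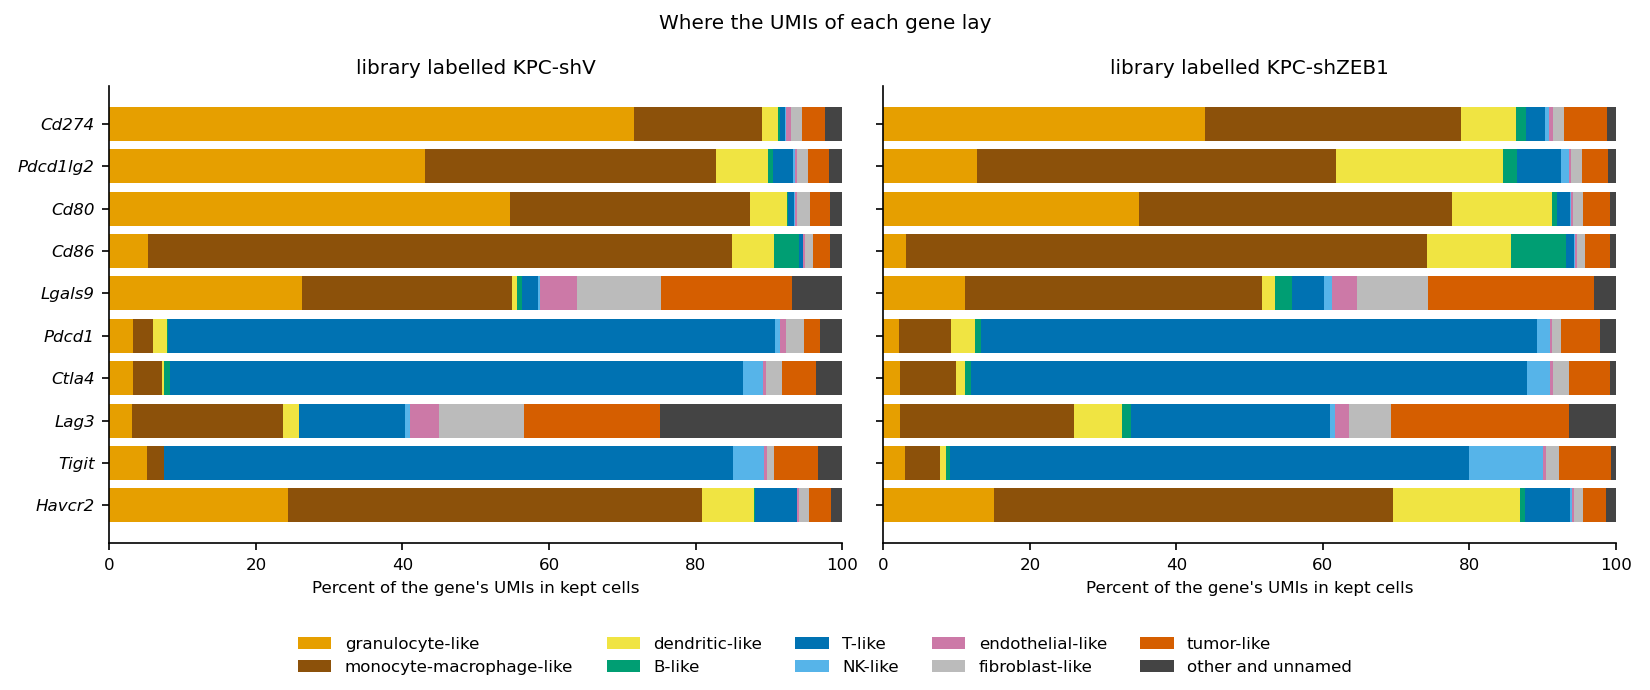
Percent of each gene's UMIs among kept cells that lay in each cell class, with 1 bar per gene and 1 panel per library. Granulocyte-like cells hold 71.6% of the Cd274 UMIs under the label KPC-shV but 43.9% under KPC-shZEB1, and T-like cells hold most of the Pdcd1, Ctla4 and Tigit UMIs in both.

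Lgals9, on chromosome 11 (78962974–78984946, minus strand), was the ligand gene with the smallest contrast between classes. Endothelial-like cells had 107.4 CPM (95.61–120.2) and 143.6 CPM (126.7–162.2), the highest level in both libraries. Monocyte-macrophage-like cells had 74.2 and 79.47 CPM, granulocyte-like cells 70.04 and 60.62 CPM, fibroblast-like cells 64.08 and 68.48 CPM and tumor-like cells 52.32 and 60.05 CPM. Dendritic-like cells were lowest, with 28.09 and 27.12 CPM. Free RNA of the same 4 classes would give 13% and 14.8% of the Lgals9 level in tumor-like cells and 8.96% and 12.1% in fibroblast-like cells, against 77.8% to 173% for the other 4 ligand genes in tumor-like cells.

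On the receptor side, Pdcd1 (chromosome 1, 94038305–94052553, minus strand) had 158.6 CPM (144.1–174.3) and 133.2 CPM (125.2–141.6) in T-like cells. NK-like cells had 11.92 and 23.21 CPM, and the other classes with at least 50 cells per library at most 9.173 CPM. ILC2-like cells, innate lymphocytes of which there were 7 and 19, had 249.3 and 203.1 CPM. T-like cells held 82.8% and 75.9% of the Pdcd1 UMIs. Ctla4 (chromosome 1, 60887000–60915832, plus strand) had 488.0 CPM (462.2–515.0) and 422.9 CPM (408.5–437.6) in T-like cells. NK-like cells had 134.1 and 129.6 CPM, against 2.363 and 6.893 CPM in granulocyte-like cells. Tigit (chromosome 16, 43648867–43664146, minus strand) had 60.82 and 55.22 CPM in T-like cells, while NK-like cells had 26.83 and 58.99 CPM. Under the label KPC-shZEB1 the Tigit intervals of both classes overlapped (50.12–60.7 and 45.12–75.78). Tigit was not detected in 291 B-like cells of the library labelled KPC-shV, which allows a share of up to 1.03% of cells with a UMI.

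Lag3 and Havcr2 were not confined to T cells. Lag3 (chromosome 6, 124904361–124911705, minus strand) was sparse, with 681 and 929 UMIs in all. T-like cells had the highest level, 36.27 CPM (29.48–44.16) and 32.57 CPM (28.68–36.84), but held 14.5% and 27.2% of its UMIs. Tumor-like cells, at 6.071 and 7.881 CPM, held 18.5% and 24.3%, and free RNA would give 9.60% and 12.6% of that level. Monocyte-macrophage-like cells, at 5.963 and 5.695 CPM, held 20.6% and 23.8%. Cells of unnamed clusters held 167 and 55 of the Lag3 UMIs, at 11.92 and 9.433 CPM. Among dendritic-like cells, the plasmacytoid-like cells stood out, with 59.75 CPM from 8 UMIs in 15 cells and 108.5 CPM from 36 UMIs in 39 cells. Havcr2 (chromosome 11, 46454935–46481255, plus strand) was highest in dendritic-like cells, at 147.6 CPM (129.8–167.2) and 229.1 CPM (216.1–242.8). Monocyte-macrophage-like cells, at 84.33 and 93.16 CPM, held 56.5% and 54.5% of its UMIs, and T-like cells had 73.64 and 52.52 CPM. Most transcripts of this receptor thus lay in myeloid cells in both libraries.

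The T-like cells were divided into subsets with the checkpoint genes held out of the clustering. Sub-clusters 0 (60 and 193 cells, led by Klra genes), 11 (24 and 58 cells, led by Ccl1 and histone genes) and 13 (15 and 37 cells, led by Klra5) got no subset name and were counted as T-like. The leading genes of sub-cluster 0 also held Klrb1c and Ncr1, which are NK markers. Of its cells, 13.3% and 16.6% had UMIs of at least 2 receptors, against 43.2% and 35.8% of all T-like cells. The leading genes of sub-cluster 11 also held Cd8a. It matched the markers of cycling cells but had more leading genes from the CD8 T list, so it stayed unnamed. Its cells are thus not among the CD8 T-like cells below. At median depths of 16816 and 19126 UMIs, sub-cluster 11 had 165.0 and 121.3 CPM of Pdcd1 and 364.4 and 344.7 CPM of Ctla4. CD8 T-like cells (42 and 166 cells) had the highest Lag3 of the T-like subsets, 133.1 and 113.1 CPM, and the highest Havcr2, 191.3 and 159.6 CPM. Their Pdcd1 was 305.0 and 368.1 CPM. Naive CD8 T-like cells (66 and 232 cells), whose markers include Lef1 and Ccr7, were low in Pdcd1, with 46.58 and 17.83 CPM. They pooled sub-cluster 1 (28 and 161 cells) and sub-cluster 8 (38 and 71 cells). The latter was led by Klra1, Ifngas1 and Klra6, so for it the name naive rests on the marker list alone. No naive CD8 T-like cell had a Lag3 UMI, which allows up to 4.55% and 1.29% of cells with one.

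Regulatory T-like cells (58 and 123 cells), which carry Foxp3, had the highest Ctla4 of the subsets, 1249 and 1309 CPM. Their Tigit was 135.0 and 98.79 CPM, and their Cd80 251.3 and 209.3 CPM, above the 82.07 and 76.72 CPM of T-like cells as a whole. Gamma-delta T-like cells (33 and 57 cells), whose leading genes were Il17a and Il23r, had Pdcd1 at 365.9 and 219.8 CPM and Ctla4 at 831.7 and 750.6 CPM. They had no Lag3 UMI and 1 and 3 Tigit UMIs. CD8 T-like cells thus had UMIs of all 5 receptors, as CD4 T-like and regulatory T-like cells also did. Gamma-delta T-like cells had mainly UMIs of Pdcd1 and Ctla4.

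**Figure D3:**
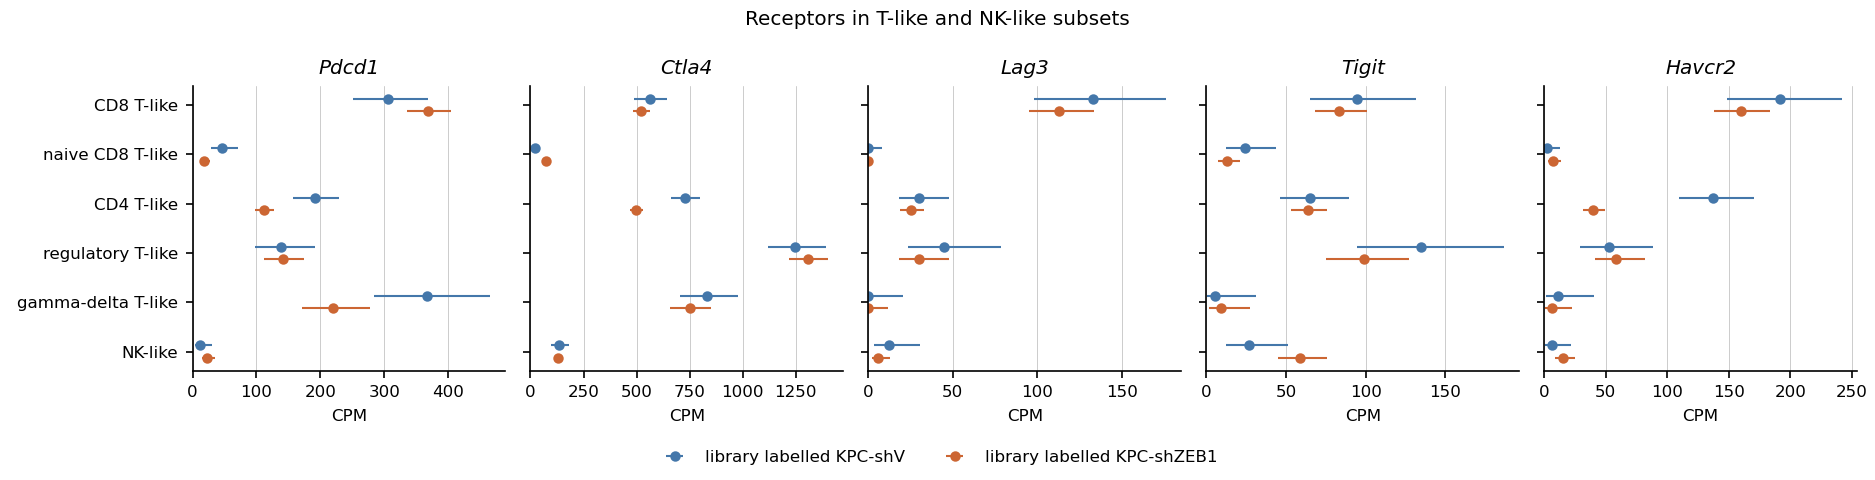
Level (CPM) of the 5 receptor genes in T-like and NK-like subsets, with 1 point per library and bars for exact 95% Poisson intervals. Ctla4 is highest in regulatory T-like cells (1249 and 1309 CPM), Lag3 and Havcr2 are highest in CD8 T-like cells, and naive CD8 T-like cells have no Lag3 UMI.

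Receptors were often met in the same cell. UMIs of at least 2 of the 5 receptors were found in 176 of 407 T-like cells (43.2%, 38.4–48.2, Clopper-Pearson) and in 456 of 1274 (35.8%, 33.2–38.5). After thinning to 1000 UMIs the shares were 11.3% (8.39–14.8) and 8.79% (7.29–10.5). The shares were lower in the library labelled KPC-shZEB1, and the intervals overlapped both as found and after thinning. In CD8 T-like cells the share was 92.9% and 82.5% as found, and 28.6% and 22.3% after thinning. That subset pooled sub-clusters in unlike numbers. As found, the share was 100% and 94.6% in sub-cluster 4 (37 and 130 cells) and 40.0% and 38.9% in sub-cluster 14 (5 and 36 cells). In naive CD8 T-like cells it was 7.58% and 3.88%. In B-like cells, which should lack these receptors and had median depths of 3736 and 3417.5 UMIs against 5380 and 4905 in T-like cells, it was 0% and 0.163%. In the deeper tumor-like cells, at 19028 and 22902 UMIs, it was 2.87% and 9.38% as found and 0% in both libraries after thinning. Of the 49 and 141 T-like cells with a Lag3 UMI, 95.9% and 87.9% also had Ctla4, against 58.5% and 51.3% of all T-like cells. Havcr2 was found in 63.3% and 55.3% of those Lag3 cells, against 17.0% and 14.4% of all T-like cells. These contrasts include differences between subsets. Within CD8 T-like cells, 60.0% and 61.0% of the 25 and 77 Lag3 cells had Havcr2, against 54.8% and 44.0% of all cells of the subset, and 96.0% and 90.9% had Ctla4, against 85.7% and 81.3%. Deeper cells give more UMIs of every gene, and these shares were not corrected for it.

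**Figure D4:**
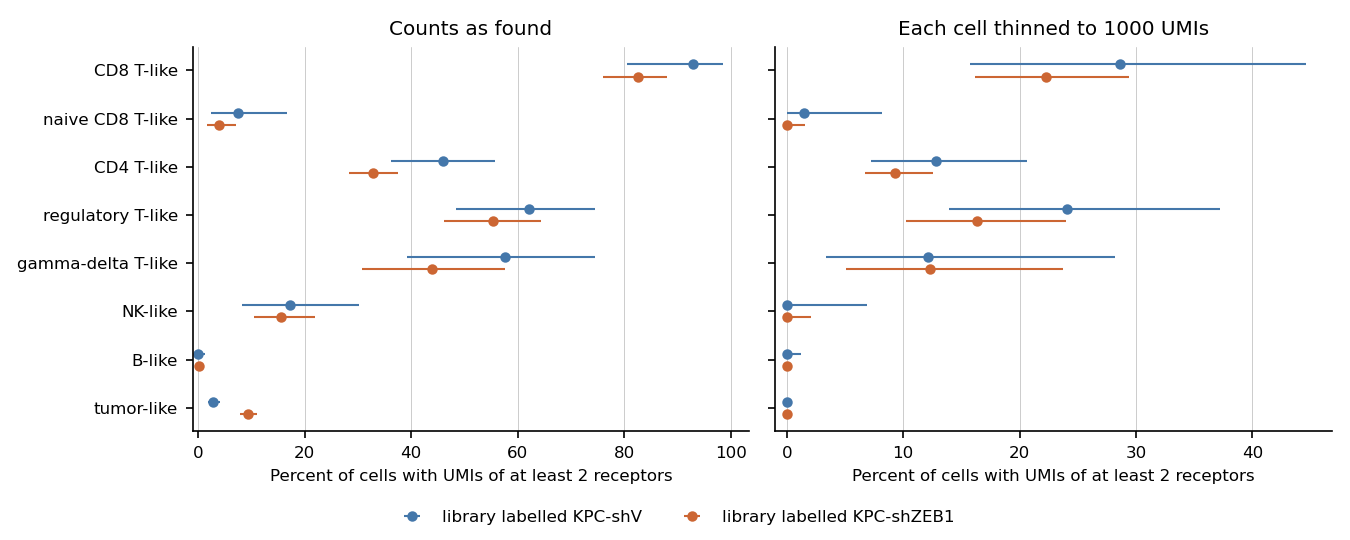
Percent of cells with UMIs of at least 2 of the 5 receptors, as found and at a thinned depth of 1000 UMIs per cell, with 1 point per library and bars for exact 95% Clopper-Pearson intervals. CD8 T-like cells are highest in both panels (28.6% and 22.3% after thinning), and tumor-like cells fall to 0% after thinning.

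Dendritic-like subsets differed in their ligands. Mature dendritic-like cells (38 and 98 cells), which carry Ccr7 and Fscn1, had the highest Cd274 of the dendritic subsets, 1735 and 1589 CPM, and the highest Cd80, 1447 and 1206 CPM. Their Havcr2 was low, with 7.237 and 23.46 CPM. Type 1 dendritic-like cells (14 and 35 cells), specialised in cross-presentation, had the highest Havcr2, 419.3 and 393.1 CPM. Type 2 dendritic-like cells (53 and 173 cells) had the highest Cd86, 1414 and 1971 CPM. Plasmacytoid-like cells were lowest in Cd80 and Cd86 among these subsets. Havcr2 and the pair of Cd274 and Cd80 were thus highest in different dendritic-like subsets.

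The libraries were then compared in T-like, granulocyte-like, dendritic-like, monocyte-macrophage-like and tumor-like cells. Among genes with at least 30 UMIs in T-like cells, 5.24% were at least 1.5-fold higher in the library labelled KPC-shZEB1 with an interval without 1, and 2.03% were lower. None of the 10 members met either criterion there. The ratios were 0.840 (0.750–0.942) for Pdcd1, 0.866 (0.813–0.924) for Ctla4, 0.898 (0.709–1.14) for Lag3, 0.908 (0.757–1.09) for Tigit and 0.713 (0.601–0.849) for Havcr2. All 5 were below 1, and the intervals of Lag3 and Tigit held 1. In NK-like cells Tigit had a ratio of 2.20 (1.09–5.04) from 9 and 61 UMIs, and no share over all genes is given for that class. With the T-like sub-clusters weighted alike in both libraries, the ratio of Pdcd1 was 0.923 and that of Ctla4 0.944, while that of Havcr2 was 0.735. In CD4 T-like cells (109 and 408 cells), Havcr2 was 137.4 and 39.77 CPM (ratio 0.290, 0.210–0.400), and 54.9% of its 82 UMIs in the library labelled KPC-shV came from 5 cells. In CD8 T-like cells the ratio of Pdcd1 was 1.21 (0.978–1.5) and that of Ctla4 0.928 (0.791–1.09), and both intervals held 1. That subset pooled sub-cluster 4 (37 and 130 cells) and sub-cluster 14 (5 and 36 cells). Its ratios were not recomputed with them weighted alike, and the cells of sub-cluster 11 were not in it. In CD4 T-like cells both ratios were lower, at 0.585 (0.464–0.740) for Pdcd1 and 0.684 (0.611–0.768) for Ctla4. The CD4 T-like subset pooled sub-clusters in unlike numbers. Sub-cluster 3 had 28 and 151 cells, of which 3.57% and 11.9% had a UMI of at least 1 receptor. Sub-cluster 6 had 40 and 86 cells, of which 97.5% and 98.8% did. The CD4 T-like ratios, that of Havcr2 included, were not recomputed with sub-clusters weighted alike. Gamma-delta T-like cells had a Pdcd1 ratio of 0.601 (0.423–0.854). In naive CD8 T-like cells Pdcd1 had a ratio of 0.383 (0.201–0.732) from 21 and 22 UMIs, and Ctla4 one of 3.29 (1.71–7.09) from 10 and 90 UMIs. That subset also pooled sub-clusters in unlike numbers, namely sub-cluster 1 (28 and 161 cells) and sub-cluster 8 (38 and 71 cells). Its ratios were not recomputed with them weighted alike. The T-like ratios of both genes thus covered subsets with unlike ratios.

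In granulocyte-like cells the background was wider, with 21.0% of genes higher and 2.51% lower by the same criterion. Of 9 members with at least 30 UMIs there, Ctla4, Pdcd1, Havcr2 and Cd86 were higher and Pdcd1lg2 was lower. Free RNA would give 115% to 124% of the Ctla4 and Pdcd1 levels in granulocyte-like cells, and 82.0% and 96.8% of Cd86. Free T cell RNA, by the Cd3 genes and Trac, was 0.562% of the T-like level under the label KPC-shV but 1.64% under KPC-shZEB1. Havcr2 went from 37.45 to 71.13 CPM (1.90, 1.73–2.08), and free RNA would give 13.1% and 14.9% of that. Cd274 had a ratio of 0.753 (0.742–0.765), Pdcd1lg2 of 0.665 (0.624–0.708), Cd80 of 1.24 (1.21–1.27) and Lgals9 of 0.865 (0.796–0.941). The 2 ligands of PD-1 were thus lower in the library labelled KPC-shZEB1, and Cd80 was higher.

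Granulocyte-like clusters differed in these genes, and the libraries held them in unlike numbers. Cd274 was highest in the cluster led by Slfn4, Rsad2 and Ifit1, genes induced by type I interferon, with 3433 and 3115 CPM. It was 3022 and 2586 CPM in cluster 3, which had 1233 and 331 cells, and 1672 and 1431 CPM in cluster 2, which carries Siglecf and had 563 and 1415 cells. Cd80 ran the other way between clusters 3 and 2, at 341.7 and 312.8 CPM in the former and 909.7 and 1006 CPM in the latter. Pdcd1lg2 was highest in cluster 3, at 304.9 and 309.8 CPM. Of the 8 granulocyte-like clusters with at least 20 cells in each library, Cd274 was lower in 7 in the library labelled KPC-shZEB1. With all clusters of the class weighted alike, a comparison chosen after the data were seen, the ratio moved from 0.753 to 0.862 for Cd274, from 0.665 to 0.904 for Pdcd1lg2, from 1.24 to 1.02 for Cd80 and from 0.865 to 0.993 for Lgals9. The ratio of Havcr2 moved from 1.90 to 1.54, and it was higher in 7 of these 8 clusters.

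**Figure D5:**
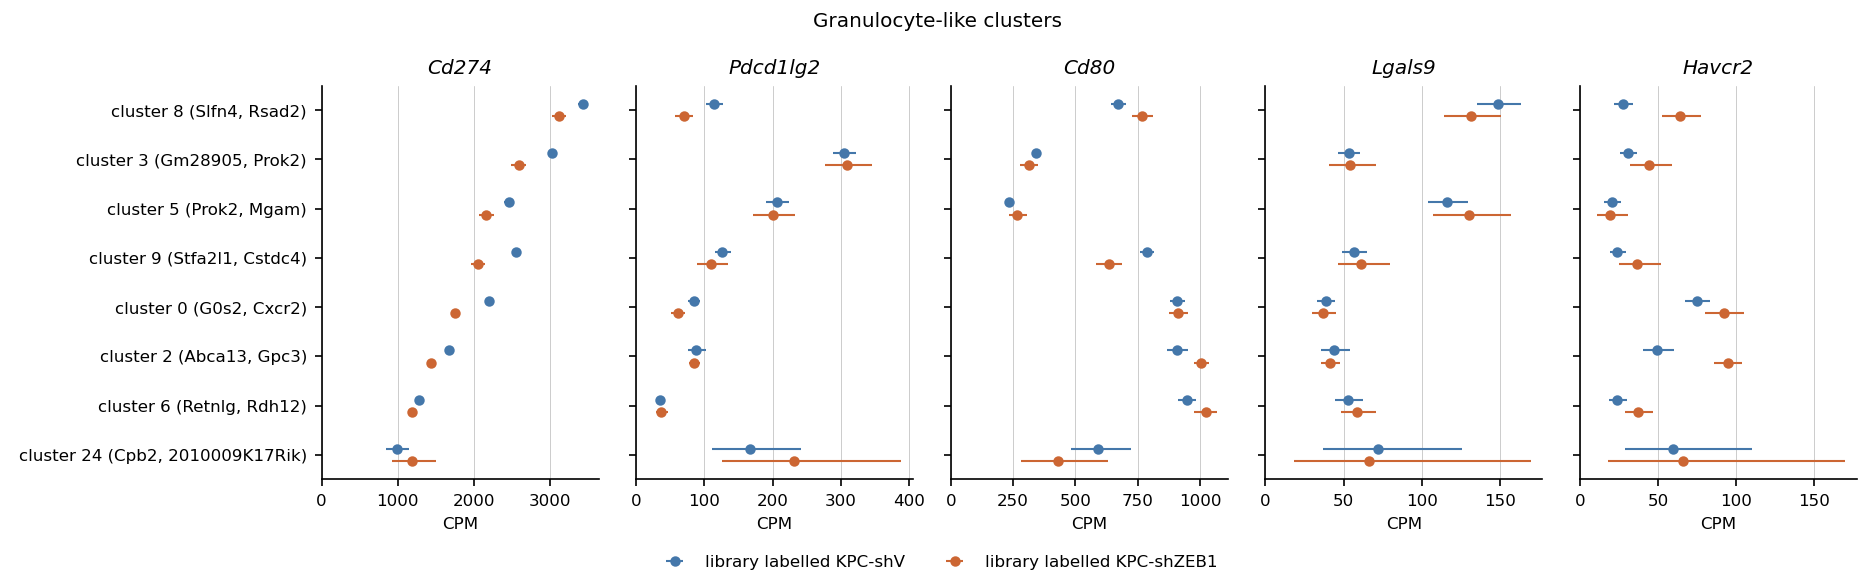
Level (CPM) of Cd274, Pdcd1lg2, Cd80, Lgals9 and Havcr2 in the granulocyte-like clusters with at least 20 cells in each library, ordered by Cd274, with 1 point per library and bars for exact 95% Poisson intervals. Cd274 runs from 3433 CPM in the first cluster to 987 CPM in the last, and Cd80 is low in cluster 3 and high in cluster 2.

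In dendritic-like cells, where 5.27% of genes were higher and 3.45% lower, Ctla4 and Havcr2 were higher among 9 members. Ctla4 rested on 6 and 58 UMIs. Havcr2 had a ratio of 1.55 (1.35–1.79), and 2.08 (1.71–2.55) in type 2 dendritic-like cells against 0.938 (0.760–1.16) in type 1. It fell below the 1.5-fold criterion with clusters weighted alike (1.27), with lower minimums on genes and UMIs (1.39), with each library clustered alone (1.42) and with no gene held out of the variable genes (1.48). Pdcd1lg2 had a ratio of 1.48 (1.35–1.62) and Cd86 of 1.33 (1.27–1.40), both just under the 1.5-fold criterion. In type 2 dendritic-like cells Pdcd1lg2 went from 337.2 to 551.8 CPM, and in mature dendritic-like cells it was 477.7 and 433.1 CPM. The 2 ligands of PD-1 differed in direction in dendritic-like cells, where Cd274 had a ratio of 0.890 (0.840–0.942).

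In monocyte-macrophage-like cells, with 8.01% of genes higher and 1.57% lower, 3 of 10 members were higher, namely Ctla4, Pdcd1 and Tigit, all below 9 CPM. Free RNA would give 69.7% to 117% of these levels, and free T cell RNA was 0.379% of the T-like level under the label KPC-shV and 1.46% under KPC-shZEB1. The ligands differed less, with ratios of 0.915 (0.896–0.936) for Cd274, 1.03 (0.984–1.08) for Pdcd1lg2, 0.944 (0.920–0.970) for Cd80 and 1.09 (1.08–1.11) for Cd86. In tumor-like cells, with 11.7% higher and 3.48% lower, Ctla4, Pdcd1, Cd86 and Tigit were higher among 10 members. The first 2 and Tigit were below 9 CPM. Cd86 went from 37.68 to 80.55 CPM, where free RNA would give 65.0 and 117 CPM. Free macrophage RNA was higher in the library labelled KPC-shZEB1, by the C1q genes. Cd274 in tumor-like cells had a ratio of 1.02 (0.965–1.07) and Lgals9 of 1.15 (1.06–1.24).

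Cd274 is a known target of interferon-gamma, so a list of 12 genes of that response was set beside them. In granulocyte-like cells 11 of 12 were higher and none lower, with a median log2 ratio of 0.94 against 0.24 over all genes tested. Of all genes in that class, 21.0% were higher. Gbp4 had the largest ratio, from 6.125 to 24.37 CPM, and Socs1, a feedback inhibitor, the smallest (1.12, 1.00–1.26). In tumor-like cells 11 of 12 were higher and none lower (median 0.72 against 0.05), with Gbp4 largest at 2.57 and Nlrc5 smallest at 1.45. There 11.7% of all genes were higher. In monocyte-macrophage-like cells 4 of 12 were higher (0.53 against 0.04), from 1.88 for Gbp2 to 1.02 for Irf8, where 8.01% of all genes were higher. In dendritic-like cells 4 of 12 were higher, from 3.66 for Cxcl9 to 0.864 for Ciita (median 0.27 against 0.02), where 5.27% of all genes were higher. In T-like cells 2 of 12 were higher (0.27 against 0.06), where 5.24% of all genes were. As a class, granulocyte-like cells thus had higher levels of most of these genes and a lower level of Cd274. Whether both differences lay in the same cells was not tested. The list was not recomputed with clusters weighted alike. How far free RNA entered the list was not tested.

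Of 14 other checkpoint receptors and their partners, 1 was lower and none higher in T-like cells, namely Cd200r1, the receptor of CD200, at 83.17 and 48.79 CPM (0.587, 0.496–0.694). Among all genes in T-like cells, 5.24% were higher and 2.03% lower, so counts this small in short lists are near that share. The costimulatory receptor genes Cd28 (274.8 and 256.0 CPM) and Icos (610.4 and 561.7 CPM) had ratios of 0.932 and 0.920. Of 12 regulators of T cell activation and exhaustion none met the criterion in T-like cells, from 0.812 for Cd101 to 1.11 for Nr4a2, and Tox, a regulator of exhausted T cells, had 836.5 and 788.2 CPM. In tumor-like cells 6 of 13 measured receptors were higher and 1 lower, from 0.388 for Klrc1 to 4.81 for Btla, where 11.7% of all genes were higher and 3.48% lower. The 6 higher receptors were all below 7 CPM. Free T cell RNA in tumor-like cells was 0.666% and 1.46% of the T-like level, free B cell RNA 0.312% and 1.11% of the B-like level, and their part in these counts was not tested. Of 14 measured ligands in tumor-like cells, 3 were higher and 1 lower. These were Tnfrsf14 with the largest ratio, Icosl, Ido1, an enzyme of tryptophan breakdown, at 17.3 and 33.76 CPM (1.95, 1.73–2.21), and Vtcn1 with the smallest, at 6.36 and 3.975 CPM. Pvr, a ligand of TIGIT, had 85.57 and 100.5 CPM in tumor-like cells. In granulocyte-like cells 2 of 12 ligands were higher and 1 lower, with Lgals3 at 564.2 and 358.7 CPM, beside 21.0% higher and 2.51% lower among all genes.

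The genes most like each member were sought by Pearson correlation of log2(CPM + 1) over 51 clusters by library among 8390 genes. These points share libraries, depth and free RNA, so the values are descriptions. Cd274 was most like Gm36043 (r = 0.94), Gm2396 (0.933) and Ankrd33b (0.929), and Pdcd1lg2 like Plgrkt (0.799), Psd4 (0.776) and Bcl2a1d (0.756). Cd80 was most like Csf2rb (0.939), Bcl2a1a (0.930) and Adam8 (0.917). Cd86 was most like Cd83 (0.939) and the MHC class II genes H2-Aa (0.891) and H2-Eb1 (0.888). Lgals9 was most like Xaf1 (0.707), Irf7 (0.658) and Rnf213 (0.627), which are genes induced by interferon. For the receptors, Pdcd1 was most like Cxcr6 (0.946), Ctla4 (0.903) and Lat (0.90), and Ctla4 like Cd3d (0.960), Skap1 (0.947) and Cd247 (0.936). Tigit was most like 4930417O13Rik (0.930), Nkg7 (0.909) and Cd3g (0.901). Lag3 reached only 0.734 with Pkp4, 0.719 with Ybx3 and 0.719 with Wfs1, and Havcr2 0.773 with Itgax, 0.772 with Irf5 and 0.772 with Ebi3, genes of myeloid cells. Among the members themselves, Pdcd1 and Ctla4 (0.903) and Cd274 and Cd80 (0.871) were most alike.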

How the data were processed

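The deposited files hold raw UMI counts of genes in barcodes. The authors used Cell Ranger 7.0.1 and mm10, per the submitters' processing notes, after 10x Chromium 3' library preparation. Whether introns were counted is not given in the sources used here. Barcodes numbered 12594 (130941086 UMIs) for KPC-shV and 13271 (143461224 UMIs) for KPC-shZEB1. Groups came from the labels, with 1 library each, so no test was run.

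As in the study, barcodes under 500 genes, under 1000 or over 60000 UMIs, or over 15% mitochondrial UMIs were left out, and 315 and 343 cells with a Scrublet score above 0.2 were removed as doublets (the study used DoubletFinder). Both libraries were clustered together with scanpy 1.11.5 and leidenalg 0.10.2 under Python 3.11.15 (3000 variable genes without 39 checkpoint genes, 30 components, 20 neighbours, resolution 1), giving 30 clusters and, at resolution 1.5, 16 T and NK sub-clusters. Clusters were named X-like by the marker list with the highest mean level relative to each marker's maximum, with at least 3 markers detected and a mean of at least 0.15. That minimum was set after the clusters were seen and leaves 1 cluster with keratins and Prg4 unnamed (cells of unnamed clusters were 4.22% and 1.67% of kept cells, and 3 unnamed T and NK sub-clusters were counted as T-like).

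UMIs were summed by class and library. Poisson, Clopper-Pearson and conditional intervals were computed with scipy 1.17.1, and the ratio step was tested on simulated data. Free RNA in a class was taken as the sum, over 4 source classes, of the member's level there times the share of that source's marker RNA found in the class. The members and lists were chosen with earlier results of these data known. Genes named are the members, the 3 genes most like each, and the extremes of the lists, and list genes named beyond these were chosen after their values were seen. Positions come from GENCODE vM21 (GRCm38). The alternatives changed the filters, clustering, class rule, averaging, scaling and background subtraction. 1 alternative, clusters weighted alike, was added after seeing the data.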

Additional observations from a re-analysis of the deposited data

Results flagged for a closer look

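In cells left out of the comparisons, some members also had higher levels in the library labelled KPC-shZEB1. In the 289 and 217 barcodes above 60000 UMIs, Cd86 was 41.4 and 89.2 CPM (ratio 2.15, 1.99–2.33) and Havcr2 6.42 and 9.72 CPM (1.51, 1.22–1.88). In the 481 and 202 cells of unnamed clusters, Cd86 was 36.4 and 79.1 CPM (2.17, 1.91–2.47), Havcr2 3.64 and 6.69 CPM (1.84, 1.18–2.84) and Pdcd1 0.357 and 1.89 CPM from 5 and 11 UMIs (5.29, 1.69–19.4). Cd86 and Havcr2 had levels in tumor-like cells that were of the same order. There free RNA would give 173% and 145% of the Cd86 level and 121% and 136% of the Havcr2 level. The part of free RNA in the cells left out was not tested.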

How the results depend on the processing

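Each ratio between the libraries was recomputed for the member's class of highest level under up to 11 alternatives, and kept its direction for every member except Cd80. With classes taken from marker UMIs in each cell, Cd80 in dendritic-like cells turned from 1.09 to 0.756, Pdcd1lg2 reached 2.95 and Cd86 3.24, the highest class was kept for 6 of 10 members and the class with most UMIs for 5 of 10, and the ratio of Havcr2 could not be obtained. As the mean of CPM over cells, Cd274 was 0.765 and Pdcd1lg2 1.33. Relative to the median ratio of genes with at least 50 CPM, Cd274 was 0.713. With clusters weighted alike, Cd274 was 0.862, Pdcd1lg2 1.33, Ctla4 0.944 and Havcr2 1.27. The call of Havcr2 in dendritic-like cells ended there and in 3 other alternatives (1.39 to 1.48). Thinning to 1000 UMIs gave 11.3% and 8.79% of T-like cells with at least 2 receptors, where fewer UMIs per cell lower the share. The cause of the other shifts was not tested. Leaving out a replicate was not possible with 1 library per group. Low depth limits Lag3, Tigit and the small dendritic-like subsets most, since several of their values rest on under 30 UMIs.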
